A study of Mus musculus with 2 samples.

Results

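The sarcolemmal excitability channels compared here are 6 genes, Scn4a, Clcn1, Kcnj2, Kcnj11, Kcnj12 and Kcnc4, out of 34745 genes in the deposited count table. They were chosen by name as sodium, chloride and potassium channels of the muscle fibre membrane, and Ensembl identifiers were paired with symbols through GENCODE M21 on GRCm38. All 6 were found and all 6 passed the filter on low counts. The sodium pump, which works beside these channels, is described further down as a related list.

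RNA was sequenced from gastrocnemius, the large calf muscle, of C57BL/6 mice aged 8 weeks. There were 2 libraries, 1 of genotype Cry2flox/flox (Cry2flox) and 1 of genotype Cry2scko. Cryptochrome 2, the product of Cry2, represses transcription in the circadian clock, and floxed means that recombinase target sites flank a removable stretch of the gene. What scko stands for and which promoter drives a recombinase are not given in the labels, nor do they say whether a library holds 1 animal or a pool or at what hour muscle was taken. With 1 library per genotype, every difference below is between these libraries, no p-value is given, and variation between animals was not measured.

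The surface membrane of a muscle fibre and its inward folds, the transverse tubules, carry the action potential that starts contraction. A sodium channel gives the upstroke, voltage-gated potassium channels help to end it, and a chloride channel together with inward rectifier potassium channels holds the membrane near its resting potential. The sodium pump restores the ion gradients. Inherited faults of these channels cause myotonia and periodic paralysis, in which fibres fire too readily or cannot fire.

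Cry2flox held 18909433 reads and Cry2scko 16423884. Cry2 itself, the targeted gene, was at 676 and 133 reads, and its log2 ratio was -2.16 (95% interval -2.44 to -1.89). Paired values give Cry2flox first, and ratios are Cry2scko over Cry2flox throughout, from scaled counts, expressed as CPM (counts per 1000000 counts of the scaled library), with exact Clopper-Pearson intervals of 95% for counting error only, which duplicate PCR reads can make too narrow. Genes with a mean CPM of at least 1 were compared. A gene counted as called, higher or lower, when its ratio reached 2-fold and its interval did not include 1. Markers of muscle fibres were abundant in both libraries, at a summed 143957 CPM in Cry2flox and 138058 in Cry2scko for 11 fast-fibre genes.

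None of the 6 channel genes differed 2-fold between the libraries. Of all 12832 genes compared, 4.88% were called, 3.37% higher and 1.51% lower, and 0 of the 6 channel genes were called. The potassium channel gene Kcnc4 was 1.46-fold lower in Cry2scko and the inward rectifier gene Kcnj2 was 1.23-fold higher, while Scn4a, Clcn1, Kcnj11 and Kcnj12 lay within 1.10-fold. The median log2 ratio of the 6 was -0.09, against -0.00 over all genes compared. Of the 6 ratios 5 were below 1, as were 6482 of the 12832 genes compared. Among the 5, Scn4a lay so close to 1 that it took either side when the scaling was varied. The interval excluded a ratio of 1 in 3 of the 6, Clcn1, Kcnj2 and Kcnc4, against 33.5% of all genes compared (16.3% higher and 17.3% lower). The share of 33.5% depends on depth, and was 47.2% among the 3681 genes with a mean CPM at least as high as the lowest of the 6.

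**Figure D1:**
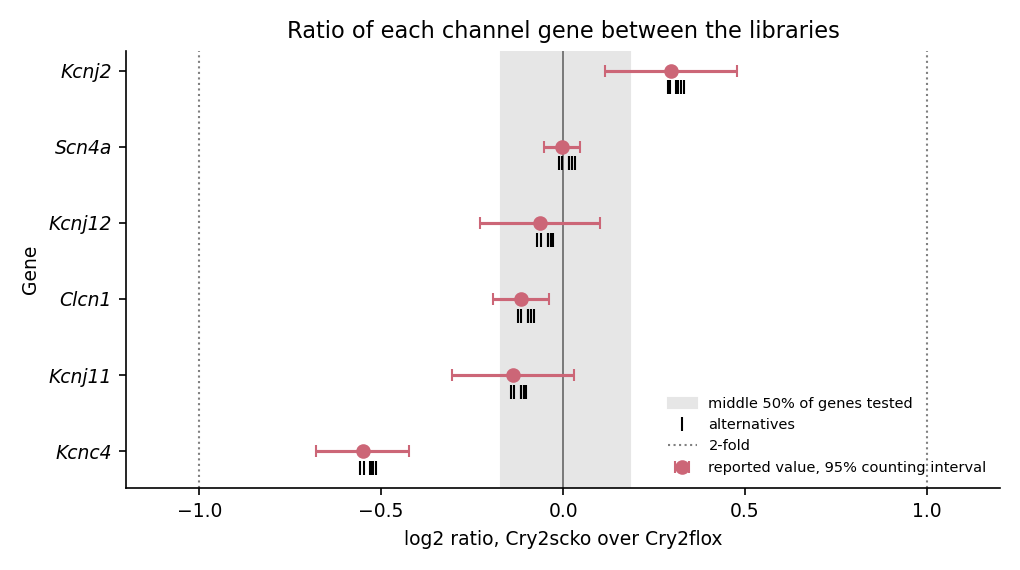
The horizontal axis gives the log2 ratio of Cry2scko over Cry2flox and each row is 1 gene, with points for the reported values, bars for 95% counting intervals, black ticks for 6 alternative ways of processing and a grey band for the middle 50% of genes compared. Kcnc4 at -0.55 and Kcnj2 at 0.30 lie outside the band, and all points and bars lie inside the dotted 2-fold lines.

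Scn4a encodes the pore-forming subunit of the voltage-gated sodium channel of skeletal muscle. It lies on GRCm38 chromosome 11 from 106318592 to 106353288, minus strand (ENSMUSG00000001027), and faults in its human counterpart cause periodic paralysis and paramyotonia. Scn4a had 7172 reads in Cry2flox and 6300 in Cry2scko, or 382 and 381 CPM. The libraries were level for this gene, with a log2 ratio of -0.00 (-0.05 to 0.05), an interval that runs from 1.04-fold lower to 1.03-fold higher. Its small ratio took either sign when the scaling was varied, from -0.01 to 0.03. Scn4a was the most highly expressed of the 6 per length, at 53.9 and 54.5 FPKM (fragments per kilobase, scaled to library size, as the authors deposited them), which placed it in the top 2.40% and 2.46% of genes with reads.

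Scn4b, a beta subunit of sodium channels, was close to level, with 7109 and 5923 reads at a log2 ratio of -0.08 (-0.13 to -0.03). The difference between Scn4a and Scn4b in log2 ratio was 0.08 (0.01 to 0.15). Of the 11 other sodium channel genes listed, 7 passed the filter, 0 were called, and their median log2 ratio was -0.08. Scn7a, a sodium-sensing relative, was also named by its level, with 154 and 146 reads at 0.11 (-0.23 to 0.44).

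Clcn1 encodes the chloride channel that gives muscle most of its resting conductance, and its loss causes myotonia congenita. The gene lies on chromosome 6 from 42286685 to 42315756, plus strand (ENSMUSG00000029862). Clcn1 had 3113 reads in Cry2flox and 2530 in Cry2scko, or 166 and 153 CPM, and 20.8 and 19.5 FPKM. It was slightly lower in Cry2scko, 1.08-fold, with a log2 ratio of -0.12 (-0.19 to -0.04) beyond counting error alone. A ratio this far from 1 was common, as 64.0% of genes compared had a ratio at least as far in either direction. The exons of Clcn1 share 445 bases with Fam131b on the opposite strand, which had 4 and 2 reads.

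Other chloride channel genes did not reach 2-fold. All 14 listed passed the filter, 0 were called, and their median log2 ratio was -0.09, with values from -0.60 to 0.39. The lowest was that of Clcn5, an endosomal chloride-proton exchanger, with 100 and 58 reads at -0.60 (-1.10 to -0.12), which a 1.5-fold threshold calls lower, and the highest that of Lrrc8d at 0.39 (-0.11 to 0.88). Ano5, an anoctamin of muscle linked to muscular dystrophy, was the most expressed per length, with 4670 and 3695 reads at -0.15 (-0.22 to -0.09). Ano6, a lipid scramblase of the same family, was at -0.35 (-0.46 to -0.25) and Clcn4, an intracellular chloride-proton exchanger, at 0.07 (-0.06 to 0.19). Mbnl1 and Celf1 regulate the splicing of Clcn1, and had log2 ratios of -0.36 (-0.42 to -0.30) and 0.01 (-0.08 to 0.11). Celf2, a relative of Celf1, had 884 and 1013 reads at 0.38 (0.25 to 0.51), the highest ratio among the anchors and regulators listed. Counts per gene do not show how Clcn1 was spliced.

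Kcnj2 encodes a strong inward rectifier, the potassium channel affected in Andersen-Tawil syndrome. It lies on chromosome 11 from 111066164 to 111076821, plus strand (ENSMUSG00000041695), in 2 exons. Kcnj2 had 481 reads in Cry2flox and 520 in Cry2scko although the Cry2scko library was smaller, or 25.6 and 31.4 CPM, and 4.67 and 5.82 FPKM. It was the member with the highest ratio, at 1.23-fold or a log2 ratio of 0.30 (0.11 to 0.48). With the scaling used here it was the only one above 1. Of the genes compared, 16.9% had a higher ratio.

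The promoter of Kcnj2 is shown because it holds the canonical E-box, a motif through which cryptochromes are known to act. The activators CLOCK and BMAL1 bind this motif. The promoter of Kcnc4, the member with the lowest ratio, is shown beside that of Kcnj2. Both were chosen after the matches and ratios were seen, and a link between matches and ratios was not tested. The windows run from 250 bases before the RefSeq start site and hold 300 bases, GRCm38.p6, 5′ to 3′ on the strand of the gene, at chr11:111065914-111066213 (plus) for Kcnj2 and chr3:107458849-107459148 (minus) for Kcnc4. Capitals mark matches to 4 motifs searched on both strands, the canonical E-box CACGTG, the E-box CAGCTG preferred by myogenic factors, the D-box TTATGTAA and the core site AGGTCA of REV-ERB and ROR receptors.
Kcnj2: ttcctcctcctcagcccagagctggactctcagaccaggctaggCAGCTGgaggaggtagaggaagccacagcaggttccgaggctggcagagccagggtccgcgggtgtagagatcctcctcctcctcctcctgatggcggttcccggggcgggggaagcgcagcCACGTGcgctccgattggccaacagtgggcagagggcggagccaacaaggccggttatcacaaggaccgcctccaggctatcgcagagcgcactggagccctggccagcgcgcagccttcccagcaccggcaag
Kcnc4: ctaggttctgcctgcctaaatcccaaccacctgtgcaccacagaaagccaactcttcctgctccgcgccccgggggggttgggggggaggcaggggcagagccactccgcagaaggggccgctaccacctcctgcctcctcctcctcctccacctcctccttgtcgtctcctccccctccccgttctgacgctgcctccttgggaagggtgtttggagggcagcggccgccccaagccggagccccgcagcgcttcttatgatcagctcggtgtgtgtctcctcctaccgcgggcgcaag
The Kcnj2 window holds 1 CACGTG, starting 84 bases before the start site, and 1 CAGCTG, starting 206 bases before it. These matches do not overlap. The Kcnc4 window holds none of the 4 motifs, and neither do the windows of Scn4a, Clcn1 and Kcnj12. Among 32851 RefSeq promoter windows of this length, 7.15% hold CACGTG, 16.3% CAGCTG, 0.938% TTATGTAA and 16.3% AGGTCA. A match is only a stretch of letters, and binding was not measured. For Kcnj2 and Clcn1 the RefSeq start equals that of the GENCODE gene, whereas it lies 654 bases inside the gene for Kcnc4, 3898 for Scn4a and 43240 for Kcnj12, so other start sites were not searched. Kcnj11 was not searched.

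Kcnj12 encodes a close relative of Kcnj2 that forms strong inward rectifiers with it. It lies on chromosome 11 from 61022564 to 61071131, plus strand (ENSMUSG00000042529). Kcnj12 had 657 reads in Cry2flox and 554 in Cry2scko, or 35.0 and 33.5 CPM, and 7.31 and 7.10 FPKM. The libraries did not differ beyond counting error, at a log2 ratio of -0.06 (-0.23 to 0.10). The balance between these relatives differed beyond counting error, since Kcnj2 took 42.3% of their joint reads in Cry2flox (exact interval 39.4% to 45.2%) and 48.4% in Cry2scko (45.4% to 51.5%). The difference between their log2 ratios, Kcnj2 minus Kcnj12, was 0.36 (0.11 to 0.61), and library scaling does not enter into it.

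Kcnj11 encodes the pore of the ATP-sensitive potassium channel, which opens when cellular ATP falls. It lies on chromosome 7 from 46093953 to 46100764, minus strand (ENSMUSG00000096146). Kcnj11 had 659 reads in Cry2flox and 528 in Cry2scko, or 35.1 and 31.9 CPM, and 29.7 and 27.4 FPKM. Cry2scko was the lower library by 1.10-fold, with a log2 ratio of -0.14 (-0.30 to 0.03) whose interval includes equality.

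The partners of Kcnj11 had log2 ratios from -0.38 to 0.04. Abcc9, a sulfonylurea receptor that regulates this channel in muscle, had 5101 and 4064 reads at -0.14 (-0.20 to -0.09). Abcc8, the receptor of the pancreatic form, lies 3.76 kb from Kcnj11 on chromosome 7 and had 52 and 35 reads at -0.38 (-1.05 to 0.26). Kcnj8, the other pore subunit of ATP-sensitive channels and one of vascular cells, was at 0.04 (-0.20 to 0.29). The difference between Kcnj11 and Abcc9 was 0.01 (-0.17 to 0.19), and that between Kcnj11 and Kcnj8 was -0.18 (-0.48 to 0.12). Of the 14 genes of this list, which also holds the other inward rectifiers, 4 passed the filter and 0 were called. Kcnj15, on 30 and 13 reads at -0.99 (-2.09 to -0.04), lay just short of 2-fold and was called lower with DESeq2 size factors. Kcnj16, 38.2 kb from Kcnj2, had 1 and 4 reads.

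Kcnc4 encodes a fast inactivating voltage-gated potassium channel of the Shaw family, known in skeletal muscle for its role in repolarisation. It lies on chromosome 3 from 107438303 to 107459552, minus strand (ENSMUSG00000027895), in 4 exons. Kcnc4 had 1325 reads in Cry2flox and 797 in Cry2scko, or 70.6 and 48.2 CPM, and 19.1 and 13.2 FPKM. This was the widest gap among the 6 genes, with Cry2scko 1.46-fold lower (1.34 to 1.60) at a log2 ratio of -0.55 (-0.68 to -0.42). Of all genes compared, 5.63% had a lower ratio and 13.9% lay at least as far from equality in either direction. At a threshold of 1.5-fold 0 of the 6 genes were called, Kcnc4 being just short of it, against 10.9% of all genes compared.

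The most abundant voltage-gated potassium channel genes beside Kcnc4 were closer to equal. Kcnc1, its most abundant relative by reads, had 1495 and 1204 reads at -0.13 (-0.24 to -0.02), and the difference of Kcnc4 from Kcnc1 was -0.42 (-0.59 to -0.25). Kcna7, a Shaker channel of muscle with the highest level per length on its list, was level at 3504 and 3074 reads, -0.01 (-0.08 to 0.06), and Kcnc4 differed from it by -0.54 (-0.69 to -0.40). The silent subunit gene Kcng4 was at -0.02 (-0.17 to 0.13). Kcne3, an accessory subunit described as a partner of Kcnc4 in muscle, was under the filter with 8 and 3 reads.

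Among the 26 other voltage-gated potassium channel genes listed, 14 passed the filter, 1 was called higher and 1 lower, and the median log2 ratio was -0.01. The gene called lower was Kcna2, a Shaker channel of nerve axons, with 107 and 33 reads at -1.50 (-2.12 to -0.94), and it lies 323.3 kb from Kcnc4 on chromosome 3. The gene called higher was the beta subunit Kcnab2, with 35 and 64 reads at 1.04 (0.44 to 1.69). Slow-fibre markers were higher in Cry2scko beside this, with 6 of 9 called higher, 9 of 9 ratios above 1 and a summed level of 1431 CPM in Cry2flox and 3026 in Cry2scko. The 11 fast-fibre markers had a median of -0.04 with 0 called. Whether the fibre mix has a part in the lower Kcnc4 was not tested, and in whole muscle fewer fibres of a type and less RNA per fibre cannot be told apart.

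**Figure D2:**
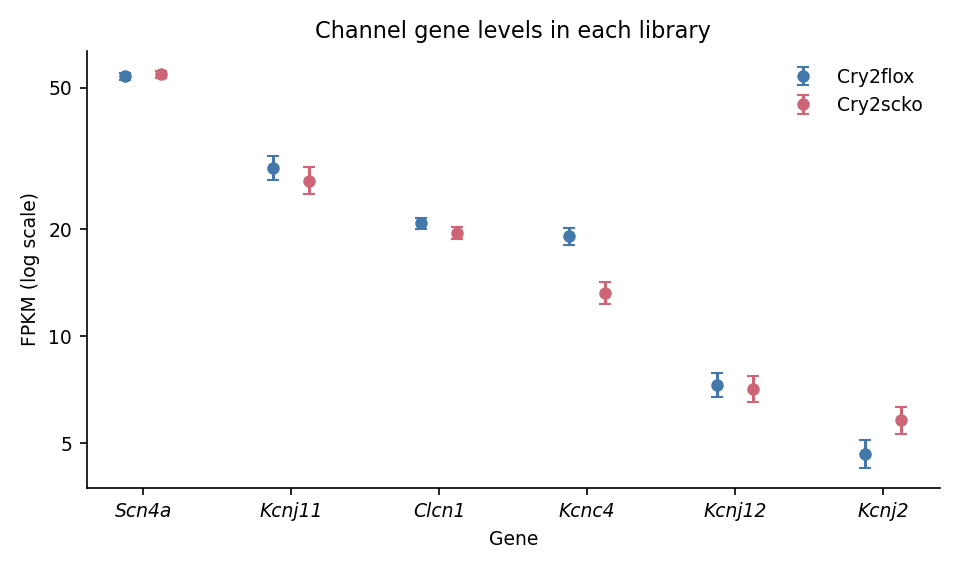
The vertical axis gives FPKM on a log scale for each gene, with a point for each library and bars for the exact 95% Poisson counting interval. The order of the genes is the same in both libraries, from Scn4a at 53.9 and 54.5 to Kcnj2 at 4.67 and 5.82.

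Per length, the order of levels by the deposited FPKM was Scn4a, Kcnj11, Clcn1, Kcnc4, Kcnj12 and Kcnj2 in both libraries. In Cry2flox the counting intervals of Clcn1 (20.1 to 21.6 FPKM) and Kcnc4 (18.1 to 20.2) met, and in Cry2scko they were apart, at 18.7 to 20.2 for Clcn1 and 12.3 to 14.2 for Kcnc4. The Kcnj2 level was 0.639 of that of Kcnj12 in Cry2flox and 0.819 in Cry2scko. These levels rest on the gene lengths behind the FPKM values. For Scn4a, Kcnj2 and Kcnc4 the implied length equalled a GENCODE length, 7041, 5444 and 3667 bases. For Kcnj11 it was 1173 bases, the coding part alone with its stop codon, against 3677 bases of merged exons, for Clcn1 it was 7912 against 5428, and for Kcnj12 it was 4750 against 2750.

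Over the GENCODE merged exons the order changed. Kcnj11 had 9.54 CPM per kilobase in Cry2flox and 8.68 in Cry2scko, below Kcnj12 at 12.7 and 12.2 and below Kcnc4 at 19.2 and 13.1. Scn4a, at 54.2 and 54.1, and Clcn1, at 30.5 and 28.2, were then the highest of the 6, and Kcnj2, at 4.71 and 5.78, was again the lowest. Which reads were counted for Kcnj11 is not given in the sources used here, so its place in the order depends on the gene model. In ratios between the libraries the gene length cancels. Whether those ratios change with the reads that a gene model counts was not tested.

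**Figure D3:**
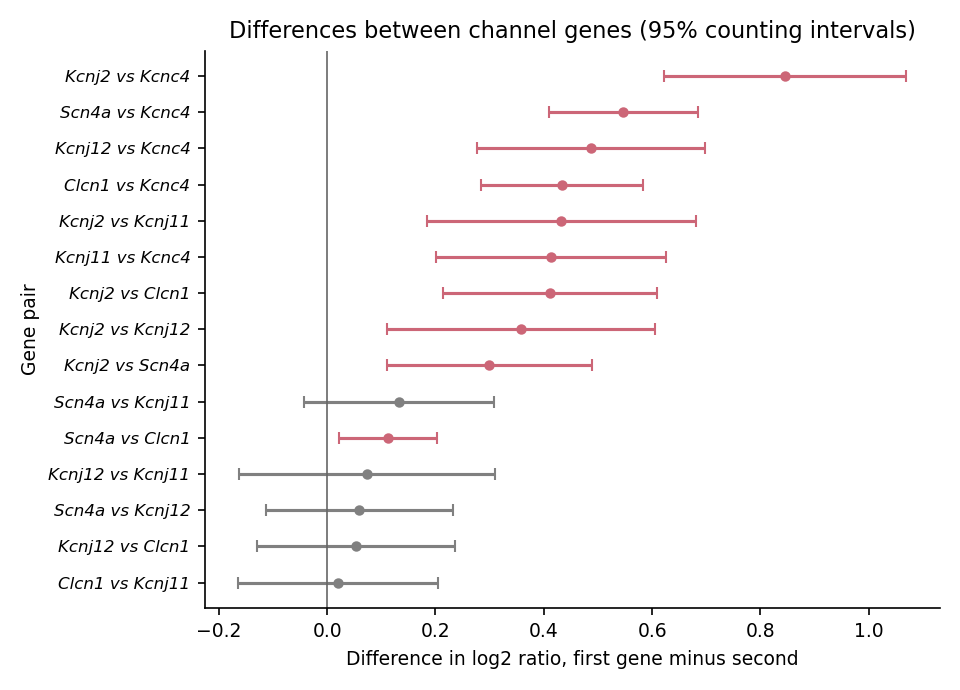
The horizontal axis gives the difference in log2 ratio between 2 channel genes, first minus second, for all 15 pairs, with bars for exact 95% counting intervals, which are red where they exclude 0 and grey where they do not. The 9 pairs with the widest differences all hold Kcnc4 or Kcnj2, from 0.85 for Kcnj2 against Kcnc4 to 0.30 for Kcnj2 against Scn4a.

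Comparing the channel genes with each other removes the library scaling. Of 15 pairs, 10 differed beyond counting error at an interval of 95% each, without adjustment for the number of pairs. The pairs are not independent, as each gene enters 5 of them. The share among pairs of other genes was not computed, so this count cannot be read as particular to the channels. Among genes with a mean CPM at least as high as the lowest channel gene, 47.2% had an interval that excluded equality. Kcnc4 differed from all 5 others, by -0.41 (-0.63 to -0.20) from Kcnj11 at the least and by -0.85 (-1.07 to -0.62) from Kcnj2 at the most. Kcnj2 also differed from all 5 others, by 0.30 (0.11 to 0.49) from Scn4a at the least. Among Scn4a, Clcn1, Kcnj11 and Kcnj12, the single pair whose interval excluded 0 was Scn4a and Clcn1, at 0.11 (0.02 to 0.20). For Clcn1 and Kcnj11 the difference was 0.02 (-0.16 to 0.20), which leaves room for a difference of either sign.

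**Figure D4:**
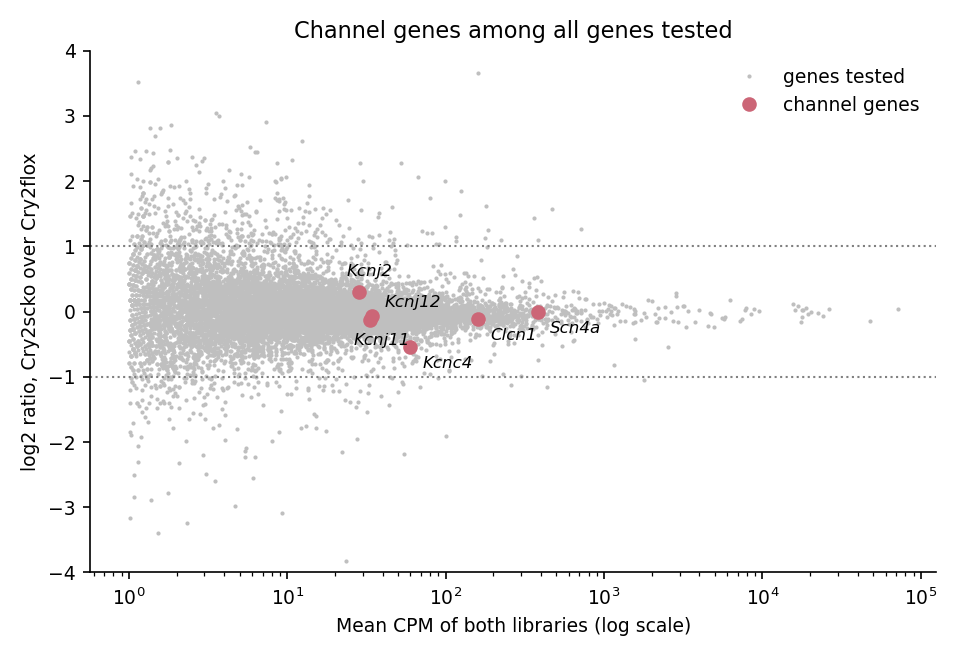
The horizontal axis gives mean CPM on a log scale and the vertical axis the log2 ratio of Cry2scko over Cry2flox, with a grey point for each of 12832 genes compared and red points for the channel genes; 10 genes beyond a log2 ratio of 4 in size are outside the axis. The 6 channel genes lie between the dotted 2-fold lines, at mean CPM from 28.5 for Kcnj2 to 381 for Scn4a.

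The genes nearest to each member in log2 CPM over the 2 libraries were taken from 11880 other protein-coding genes. With 2 libraries such nearness says only that reads were alike in number. Nearest to Kcnc4 were Lmna, a nuclear lamina gene (1303 and 789 reads, distance 0.03), and Sec14l1 (1354 and 786 reads, 0.04). For Kcnj2 they were Gsto1 (485 and 521 reads, 0.01) and Pam (480 and 531 reads, 0.03). Scn4a was nearest to Usp13 and Pdk2, and Clcn1 to Chchd3 and Mrpl42. Kcnj11 had Tusc2 and Uhmk1 as neighbours, and Kcnj12 had Ubald1 and Ltn1.

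**Figure D5:**
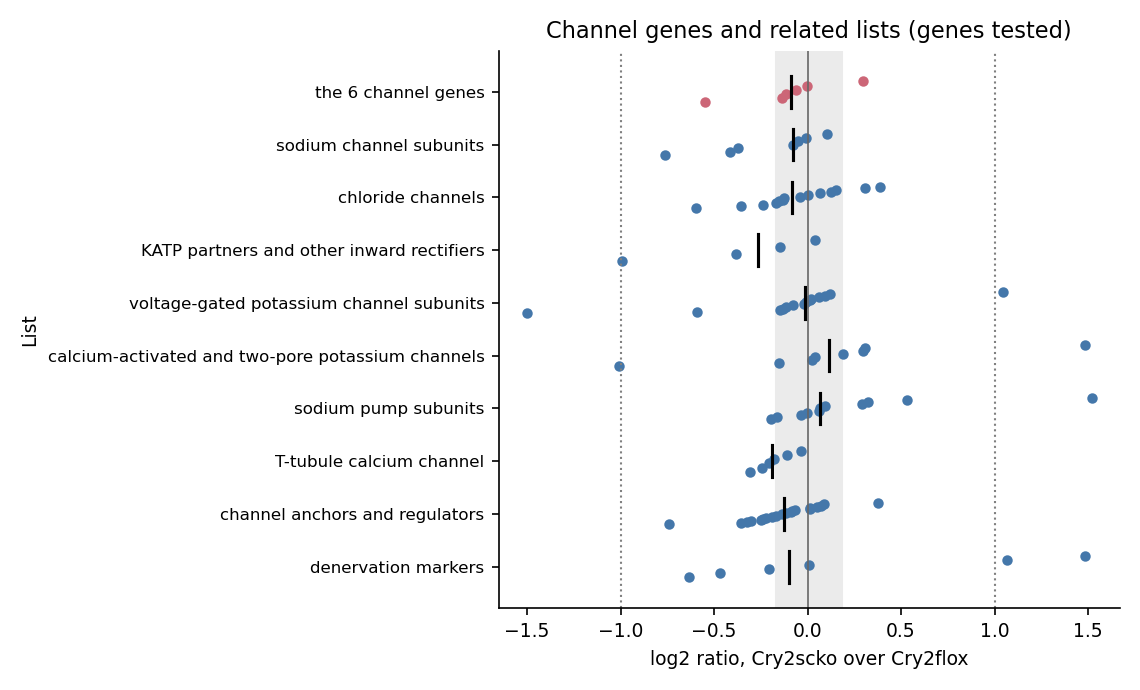
The horizontal axis gives the log2 ratio of Cry2scko over Cry2flox, each point is 1 gene that passed the filter, rows are lists, black bars are list medians, and the grey band is the middle 50% of genes compared. The 6 channel genes have a median of -0.09, and the medians of the related lists run from -0.26 for the ATP-sensitive channel partners and other inward rectifiers to 0.11 for the calcium-activated and two-pore potassium channels, both of which move with the filter on low counts.

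Sodium pump genes were close to equal in their median, with 7 ratios above 1 and 4 below. Of 14 listed, 11 passed the filter, 1 was called higher and 0 lower, and the median log2 ratio was 0.06. The beta subunits Atp1b1 and Atp1b2 were at -0.19 (-0.27 to -0.12) and -0.16 (-0.21 to -0.11), and phospholemman, Fxyd1, which regulates the pump, at 0.10 (0.02 to 0.17). Fxyd5, Fxyd6 and Atp1b4 were also higher beyond counting error, at 0.53 (0.23 to 0.84), 0.29 (0.12 to 0.46) and 0.32 (0.01 to 0.63). The gene called higher, Fxyd7, had 10 and 26 reads at 1.52 (0.46 to 2.78).

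The calcium channel of the transverse tubule, which senses the action potential that these channels carry, was slightly lower in Cry2scko. All 6 genes passed the filter and had ratios below 1, 0 were called, and the median log2 ratio was -0.19. Cacna1s, its pore and voltage sensor, had 15439 and 11499 reads at -0.24 (-0.28 to -0.21), Cacng1 was at -0.18 (-0.27 to -0.09) and the adaptor Stac3 at -0.11 (-0.17 to -0.05). Scn4a was higher than Cacna1s in log2 ratio by 0.24 (0.18 to 0.30).

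Calcium-activated and two-pore potassium channels had 8 of 13 listed genes past the filter, 1 called higher and 1 lower. Kcnn3, a small-conductance channel known to appear in denervated muscle, was higher, with 20 and 50 reads at 1.48 (0.73 to 2.33). Kcnk5 was lower on 28 and 12 reads at -1.01 (-2.15 to -0.02), and this call was lost under 6 of the alternatives. Kcnn1, with 289 and 313 reads, was at 0.30 (0.06 to 0.53), Kcnma1, a large-conductance channel, at 0.19 (-0.03 to 0.41) and the two-pore channel Kcnk6 at 0.02 (-0.51 to 0.55). Denervation markers had 6 of 8 past the filter, 2 higher (Kcnn3 and Runx1) and 0 lower, with Runx1 at 1.07 (0.51 to 1.66). Their median log2 ratio was -0.10, and -0.34 at a mean CPM of 5 or more, where neither higher gene enters. In the other direction Myog, a myogenic factor of this list, was at -0.63 (-0.94 to -0.34) and the adhesion molecule Ncam1 at -0.47 (-0.85 to -0.09), while the acetylcholine receptor subunit Chrna1 was at 0.01 (-0.22 to 0.24) and Gadd45a at -0.21 (-0.43 to 0.02).

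Anchors and regulators of the channels had 20 of 21 genes past the filter, 0 called and a median log2 ratio of -0.13. The splicing factor Mbnl2 was at -0.13 (-0.20 to -0.07) and the kinase Sgk1 at -0.24 (-0.31 to -0.17). The lowest ratio on this list was that of Ank1, an ankyrin with a muscle form in the sarcoplasmic reticulum, with 9061 and 4782 reads at -0.74 (-0.79 to -0.69).

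Cells other than fibres can also carry some of these genes. Endothelial markers had 0 of 8 called and a median of 0.12, at a summed 541 CPM in Cry2flox and 534 in Cry2scko, and mural and smooth muscle markers had 0 of 8 called and a median of -0.22, at 828 and 746 CPM. Schwann and nerve markers had 0 of 8 called and a median of -0.05, at 196 and 189 CPM. Lymphocyte markers were called higher in 7 of 7, at 56.8 and 143 CPM, and fibroblast and tendon markers lower in 4 of 8, at 1338 and 866 CPM. Adipocyte markers had 1 of 5 compared called lower, at 36.2 and 21.8 CPM, and satellite cell markers 2 of 6 (Spry1 and Calcr), at 58.1 and 31.6 CPM. The satellite cell sum rests on Spry1, at 503 and 19 reads, and without it the other 5 markers summed to 31.3 and 30.4 CPM. No listed marker was at 0 in both libraries, and the part of these cells in the ratios of Kcnj2 and Kcnc4 was not tested.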

How the data were processed

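The authors deposited unnormalised counts of reads per Ensembl gene in 1 table for both libraries, and FPKM values in a file for each, per the file headers. CASAVA, HISAT2 2.0.4, StringTie 1.3.0 and GRCm38 are named in the submitters' processing notes. The read counter, annotation release and strand setting are not given in the sources used here.

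Library sizes were scaled by TMM (edgeR 4.0.16, R 4.3.3). The log2 ratio was taken after adding 0.5 reads to each count. Its interval came from the exact binomial share of the reads of a gene in Cry2scko, and differences between genes from the exact conditional odds ratio (scipy 1.17.1). Both were tried on simulated counts that varied by Poisson counting error alone, as the intervals assume. That trial cannot show how they hold under variation between animals. Implied gene lengths came from counts and FPKM, and agreed between libraries within 0.1 percent for 100% of 16284 genes with reads in both. Of 34745 identifiers, 34344 had a symbol. At 0 reads, taking 3 as the floor, the limit is 0.160 CPM in Cry2flox and 0.181 in Cry2scko. No near-identical copy (90% over 100 bases, BLAST 2.17.0) was found for the 6 genes, other than the shared stretch of Clcn1 and Fam131b.

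The members and lists were chosen with earlier results of these data known. Named genes are the members, Cry2, called genes and the 3 with the highest mean FPKM on each list, and the 2 nearest to each member, apart from items not reported here. Others, such as Ank1, Kcne3, Kcnj15, Clcn5, Lrrc8d, Ncam1, Spry1, Calcr, Fxyd1, Fxyd5, Fxyd6, Atp1b4, Mbnl1, Celf1 and Kcnj16, were chosen after their values were seen. So were Celf2 and the comparisons of members with partner genes. Alternatives were other scalings, FPKM with 0.1 added, 5 reads added, other filters and a 1.5-fold threshold.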

Additional observations from a re-analysis of the deposited data

How the results depend on the processing

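The log2 ratios of the 6 channel genes and their median moved less than the counting interval of the gene, and the median by less than 0.05, under total-count scaling, DESeq2 1.42.0 size factors, totals without mitochondrial and the 20 most abundant genes, scaling to fibre genes, FPKM with 0.1 added and 5 reads added. Kcnc4 ranged from -0.56 to -0.51, Kcnj2 from 0.29 to 0.33, Clcn1 from -0.12 to -0.08, and the median from -0.10 to -0.05. Under every alternative, 0 of the 6 were called. Over all genes, 432 were higher and 194 lower. These counts were 789 and 396 with no filter and 175 and 76 at a mean CPM of 5 or more, because more or fewer genes enter, and 842 and 558 at 1.5-fold by construction. With FPKM and 0.1 added, 311 were higher and 116 lower. Adding 0.1 moves the ratios of genes with low FPKM towards 1 by construction, and its part in these counts was not tested. Calls on related lists that rest on few reads, such as Kcnk5, Kcnab2, Kcna2, Kcnn3 and Fxyd7, were each lost under at least 1 alternative. List medians also moved with the filter. For the ATP-sensitive channel partners and other inward rectifiers, at -0.26 over 4 genes, the median was -0.14 with no filter and -0.05 at a mean CPM of 5 or more, and for the calcium-activated and two-pore channels, at 0.11, it was 0.04 and 0.24. No paired analysis was possible because each genotype has 1 library.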

Other observations

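Several relatives of the channel genes were read too rarely to be compared and are given as values only, chosen after they were seen. Kcnj3, an inward rectifier of heart and nerve, was at 19 and 2 reads (Cry2flox, then Cry2scko), with a log2 ratio of -2.78 (-6.21 to -1.01). Kcnc2, a relative of Kcnc4, had 17 and 3 reads, at -2.14 (-4.73 to -0.53).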
